A study of Mus musculus with 15 samples.

Results

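The genes Bpgm, Slc4a1, Mkrn1 and Bnip3l, which are active late in the making of red blood cells, were followed through the RNA of extracellular vesicles (EVs) from mouse plasma. They were picked by symbol from the gene tables, 4 of the 43472 symbols listed, and all 4 were listed in the table of each of the 15 libraries. The study asked whether the RNA carried by circulating EVs differs between muscle conditions. It compared 3 libraries from WT mice (C57BL/6), 6 from dystrophic mice (Sgcb-null, which lack β-sarcoglycan) and 6 from hypertrophic mice. For the hypertrophic mice the sample labels give MAGIC-F1, a chimeric factor that activates Met, whereas the study's methods give Mstn-null, so that only the condition is used here. No mouse was treated according to the labels, the animals were 3 to 6 months old, and EVs of 2 to 3 mice were pooled for each library, so that no value belongs to a single animal. The labels write serum and the series text plasma, and 6 libraries carry a number in their title that is not the number of their counts, namely replicates 1 to 3 of the hypertrophic group and 4 to 6 of the dystrophic group, whose numbers are exchanged with each other. The labels decided the group of a library here, and replicate numbers only name it.

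In the last steps of red cell formation an erythroblast ejects its nucleus and becomes a reticulocyte, a cell that still holds RNA and enters the blood. The reticulocyte then clears its mitochondria and other organelles, breaks down surplus protein and rebuilds its membrane, while hemoglobin makes up most of what it keeps. It sheds vesicles as it matures, and RNA of erythroid type can be met in plasma. Of the genes described here, Bpgm encodes bisphosphoglycerate mutase, which makes the 2,3-bisphosphoglycerate (2,3-BPG) that lowers the affinity of hemoglobin for oxygen. Slc4a1 encodes band 3, the chloride and bicarbonate exchanger that also ties the membrane to the skeleton beneath it. Mkrn1 encodes makorin-1, a RING-type E3 ubiquitin ligase, and Bnip3l encodes NIX, the receptor on the outer mitochondrial membrane through which reticulocytes remove their mitochondria.

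In the mouse genome mm10, with GENCODE M21 as the annotation, Bpgm (ENSMUSG00000038871.5) lies at chr6:34476207-34505613 on the plus strand. Slc4a1 (ENSMUSG00000006574.15) lies at chr11:102348824-102366203, Mkrn1 (ENSMUSG00000029922.15) at chr6:39397804-39420462 and Bnip3l (ENSMUSG00000022051.15) at chr14:66985239-67008877, all 3 on the minus strand. All are protein-coding genes. Mkrn1 overlaps the antisense gene Gm10244, which was counted with 407 reads in WT replicate 2, 53 reads in dystrophic replicate 5 and 0 reads in each other library. The labels name a stranded kit and the methods an unstranded kit, so reads of Mkrn1 and of its antisense partner may not have been told apart.

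The reads were 50 bases long, and some stretches of that length occur in more than 1 gene. Windows of 50 bases from all annotated transcripts of each gene were looked up, letter for letter, in the transcripts of all other genes. Of the Bpgm windows 0 of 3580 and of the Slc4a1 windows 0 of 4884 occurred elsewhere. For Mkrn1, 347 of 4482 windows (7.74%) were shared, 219 of them with Gm10244 and 122 with the processed pseudogene Mkrn1-ps1 on chromosome 5, to which the libraries gave only 6 reads in all. For Bnip3l, 800 of 3853 windows (20.8%) were shared, every one with the processed pseudogene Bnip3l-ps on chromosome 12, a symbol that the count tables do not list. In the coding part the share was 73.4% for Bnip3l (444 of 605 windows) and 12.8% for Mkrn1 (179 of 1394 windows). The hemoglobin genes, the yardstick used below, were shared even more, with 87.8% of the coding windows of Hba-a1 found in Hba-a2 and 93.6% of those of Hbb-bs found in Hbb-bt. Counts of Mkrn1, Bnip3l and the single hemoglobin genes are therefore uncertain to this extent, and hemoglobin was used mainly as the sum of its genes. Reads without a unique alignment have their own summary line, which was left out. Reads of shared windows may therefore be missing from that sum too. A window of each kind is shown so that the identity between copies can be seen, with the start codon in capitals where the window opens the coding sequence and Hba-a1 as the hemoglobin example. Each runs 5′ to 3′ along the transcript. The Mkrn1 window is at chr6:39405840-39405889 (minus strand) and again at chr5:88839013-88839062 (minus strand) in Mkrn1-ps1. The Bnip3l window is at chr14:67008735-67008784 (minus strand) and again at chr12:18216598-18216647 (plus strand) in Bnip3l-ps, and that of Hba-a1 is at chr11:32283707-32283756 and again at chr11:32296524-32296573 in Hba-a2, both on the plus strand.
Mkrn1 and Mkrn1-ps1: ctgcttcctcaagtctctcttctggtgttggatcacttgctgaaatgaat
Bnip3l and Bnip3l-ps: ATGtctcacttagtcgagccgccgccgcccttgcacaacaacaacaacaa
Hba-a1 and Hba-a2: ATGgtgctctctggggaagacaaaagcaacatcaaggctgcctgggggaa

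**Figure D1:**
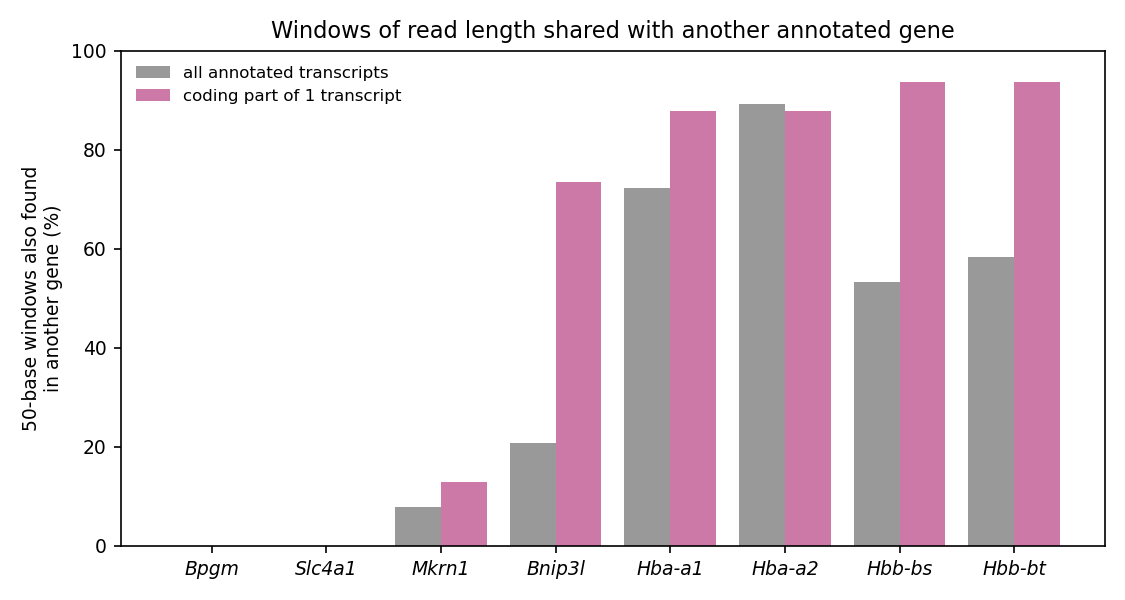
Share of the 50-base windows of each gene that also occur in another annotated gene, in percent, for all annotated transcripts (grey bars) and for the coding part of a single transcript (pink bars). Bpgm and Slc4a1 are at 0, Mkrn1 at 7.74% and 12.8%, Bnip3l at 20.8% and 73.4%, and the 4 hemoglobin genes between 53.2% and 93.6%.

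The libraries differed widely in depth, which sets how much a low value means. Gene reads per library numbered from 27227 to 7738568 in the WT-derived, from 1170610 to 32563362 in the dystrophic-derived and from 328710 to 6461652 in the hypertrophic-derived libraries, and between 797 and 8968 genes were detected. Levels are given as CPM, the reads of a gene scaled to the same total of gene reads in each library, and a count of 0 allows up to 3 reads, between 0.0921 and 110 CPM. Intervals are 95% Wilson intervals and, like this limit, cover counting error only, since the RNA was amplified. Erythroid RNA was present in every library: the 4 adult hemoglobin genes listed took between 2.23% and 15.3% of the gene reads, and Alas2, the first enzyme of heme synthesis in erythroid cells, was detected in 15 of 15 libraries at 478 to 7058 CPM. Platelet genes were abundant too, with Pf4 at 2029 to 15242 CPM. Sgcb was counted in 1 library, hypertrophic replicate 3 (695 reads), and Mstn in 0, so that the counts of these genes do not test the labels of the other libraries.

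Bpgm was detected in all 15 libraries with values that overlapped between the conditions. Its level in the WT-derived EVs was 36.7, 111 and 416 CPM, the lowest of these resting on 1 read (Wilson interval 6.48 to 208 CPM). In the dystrophic-derived EVs it was 295, 300, 471, 699, 761 and 1221 CPM, and in the hypertrophic-derived EVs 36.5, 457, 502, 603, 686 and 1035 CPM. The mean was 188 ± 201 CPM (SD, n = 3) for WT, 624.6 ± 351 CPM (SD, n = 6) for dystrophic and 553 ± 326 CPM (SD, n = 6) for hypertrophic. The groups overlapped, WT replicate 3 lying above dystrophic replicates 3 and 5, and hypertrophic replicate 5, with 12 reads, at the level of the lowest WT library. The dystrophic and hypertrophic means, neighbours in the order, differed by less than either SD, while the hypertrophic and WT means differed by more than either SD although their libraries overlapped. In RNA of mixed source, fewer vesicles of erythroid origin and less Bpgm RNA in each of them cannot be told apart. Nor can RNA of the gene from other cells, and the same holds for the other genes.

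Slc4a1 was the gene most often missed, at 0 reads in 5 of the 15 libraries. It was at 0, 136 and 0 CPM in WT replicates 1 to 3. In the dystrophic-derived EVs it was at 0, 10.7, 114, 117, 224 and 266 CPM, and in the hypertrophic-derived EVs at 0, 0, 140, 141, 142 and 326 CPM. Means were 45.3 ± 78.4 CPM (SD, n = 3), 122 ± 108 CPM (SD, n = 6) and 125 ± 120 CPM (SD, n = 6) for WT, dystrophic and hypertrophic. Each condition held libraries at 0 and libraries above 100 CPM, so no condition stood apart from the others.

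The zeros of Slc4a1 fell in libraries of very different depth. In WT replicate 1 a count of 0 allows up to 110 CPM, and at the median level of the other WT libraries 1.85 reads would have been counted, so that the 0 there says little about its level. In hypertrophic replicate 2, with 5800739 gene reads, 0 reads were counted where the median CPM of the other hypertrophic libraries would give 817, and in dystrophic replicate 3 it would give 314. These libraries carried 4.37% and 4.49% hemoglobin and 457 and 295 CPM of Bpgm. Since the RNA was amplified, read totals do not give the number of molecules sampled, and the cause of these zeros was not tested. With a minimum of 5 or of 10 reads Slc4a1 was still found in 10 libraries, and after all libraries were sampled down to 27227 reads it was found in 9.3 on average.

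Mkrn1 was the most abundant of the 4 genes and was detected in every library. It stood at 1155, 1217 and 1983 CPM in the WT-derived EVs. Dystrophic-derived EVs held 294, 834, 1073, 1412, 1538 and 2293 CPM. Hypertrophic-derived EVs held 1025, 1293, 1309, 1593, 2663 and 3527 CPM, and the highest of these, replicate 3, was the highest of all libraries. The means were 1452 ± 462 CPM (SD, n = 3) for WT, 1241 ± 680 CPM (SD, n = 6) for dystrophic and 1902 ± 981 CPM (SD, n = 6) for hypertrophic, and the neighbours in this order lay within 1 SD of each other. The library lowest in Mkrn1, dystrophic replicate 4, was the highest of all in hemoglobin and in Bpgm.

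Bnip3l was detected in 14 libraries and had nearly the same mean in each condition. It was at 808, 701 and 185 CPM in WT replicates 1 to 3. The dystrophic-derived EVs gave 166, 258, 357, 511, 639 and 1077 CPM, and the hypertrophic-derived EVs 0, 430, 437, 453, 572 and 1074 CPM. Means were 565 ± 333 CPM (SD, n = 3), 501 ± 330 CPM (SD, n = 6) and 494 ± 345 CPM (SD, n = 6) for WT, dystrophic and hypertrophic. In hypertrophic replicate 5 no read was counted where the median of the other hypertrophic libraries would give 149, and the same library had 0 reads of Slc4a1 and 36.5 CPM of Bpgm, but 1025 CPM of Mkrn1 and a hemoglobin share of 7.38%.

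Per length, which allows levels of different genes to be set side by side, the median over the 15 libraries was 295 RPKM for Mkrn1, that is CPM divided by the exon length in kilobases. It was 131 RPKM for Bpgm, 117 RPKM for Bnip3l and 24.0 RPKM for Slc4a1. The ranges over libraries overlapped between all of them, from 66.2 to 795 RPKM for Mkrn1 and from 0 to 66.6 RPKM for Slc4a1. Within each library, however, Mkrn1 was above Slc4a1. Summed over the 4 genes the level was 2249 ± 521 CPM (SD, n = 3) in WT-, 2489 ± 881 CPM (SD, n = 6) in dystrophic- and 3074 ± 1473 CPM (SD, n = 6) in hypertrophic-derived EVs.

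**Figure D2:**
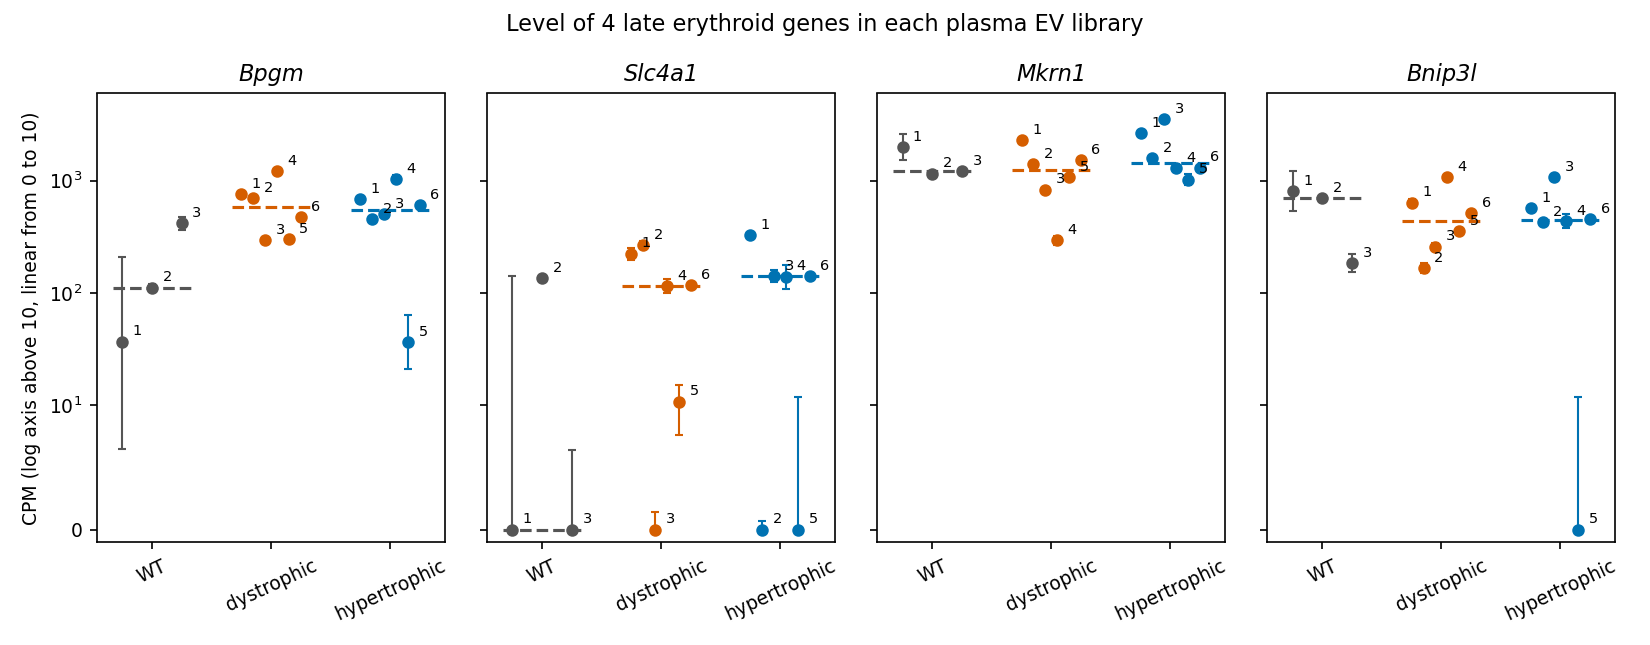
Level of each gene in each library, in CPM (log axis above 10, linear from 0 to 10), with 95% Wilson intervals as bars, the replicate number beside each point and the median of each condition as a dashed line. Slc4a1 is at 0 in 5 libraries spread over all 3 conditions, and for every gene the points of the conditions overlap.

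The conditions were then compared with edgeR's quasi-likelihood test over all 6887 genes that passed its filter on low counts, with p-values adjusted by the Benjamini-Hochberg method. All 4 genes passed the filter, and 0 of the 4 were called in any of the 3 comparisons. The background was itself near 0, with 0.0145% of all genes called between dystrophic and WT, 0.029% between hypertrophic and WT and 0.0145% between hypertrophic and dystrophic. At an unadjusted p under 0.05 the count was still 0 of 4, against 2.02%, 8.02% and 12% of all genes. DESeq2 called 14.9%, 16.5% and 3.89% of the genes to which it gave an adjusted p, and again 0 of the 4. Nothing in the files says that the pooled samples of a condition were drawn independently beyond their labels. The Sgcb-null mice that the study's methods list for plasma are too few for 6 separate pools of 2 to 3 mice. The same holds for the hypertrophic mice if all were of a single genotype, MAGIC-F1 or Mstn-null. Some libraries of the dystrophic or of the hypertrophic group may thus share animals, and p-values then measure the spread between these libraries.

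Between dystrophic- and WT-derived EVs, Bpgm had a log2 fold change of 1.46 (SE 1.67, 95% interval −1.82 to 4.73, edgeR adjusted p = 0.851). Slc4a1 had a log2 fold change of 1.13 (interval −4.18 to 6.44), with 2 of the 3 WT libraries at 0. Mkrn1 stood at −0.06 (interval −2.07 to 1.95) and Bnip3l at 0.00 (interval −3.02 to 3.03), and the adjusted p of each of these 3 genes was 1. The interval for Mkrn1, the narrowest, still held changes of more than 1 log2 unit in each direction.

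Between hypertrophic- and WT-derived EVs Bpgm and Slc4a1 again had the higher values. Bpgm was at 1.0 (SE 1.63, interval −2.19 to 4.20, edgeR adjusted p = 0.934) and Slc4a1 at 0.90 (interval −4.35 to 6.14). Mkrn1 was at 0.23 (interval −1.81 to 2.26) and Bnip3l at −0.28 (interval −3.28 to 2.72). Since both comparisons use the same 3 WT libraries, their likeness is not independent. Leaving out WT replicate 3, the WT library with the most Bpgm, raised the log2 fold change of Bpgm to 2.95 for dystrophic and 2.49 for hypertrophic, and leaving out WT replicate 1 lowered it to 0.93 and 0.48. Without WT replicate 2 Slc4a1 was at 0 in every WT library left, and its fitted fold change, 11.97 for dystrophic, then has no meaning as a size.

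Between hypertrophic- and dystrophic-derived EVs, the comparison with 6 libraries on each side, none of the 4 genes differed beyond the error. The log2 fold changes were −0.45 for Bpgm (SE 1.27, interval −2.95 to 2.04), −0.23 for Slc4a1 (interval −4.35 to 3.88), 0.28 for Mkrn1 (interval −1.36 to 1.93) and −0.28 for Bnip3l (interval −2.75 to 2.19). The edgeR adjusted p was 0.9998 for each. The median over the 4 genes was −0.26, beside −0.28 over the 6090 tested genes with more than 3 reads in both conditions. For dystrophic against WT the median was 0.57 beside 0.07 over 4201 such genes, and for hypertrophic against WT it was 0.56 beside −0.21 over 3798. Medians over all 6887 tested genes include those with 3 reads or fewer in a condition. They were 1.38 for dystrophic against WT, 0.66 for hypertrophic against WT and −0.52 for hypertrophic against dystrophic. The median of the 4 genes lay below both medians against WT and above the last. Of the single genes, Bpgm lay above both medians against WT (1.46 and 1.0) and Slc4a1 (0.90) above the hypertrophic one.

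The crossed library numbers bear on the sign of some differences, that of Bpgm between hypertrophic and dystrophic included. With the 6 crossed libraries exchanged between the conditions, Mkrn1 was at −0.83 between hypertrophic and dystrophic, and with only the 9 libraries of matching numbers at −0.69, in place of 0.28. Hypertrophic replicate 3, the library with 695 reads of Sgcb, is among those exchanged and would then stand in the Sgcb-null group. With a covariate for the number series in the titles it was at 0.11, and Bpgm was at −0.45, Slc4a1 at −0.25 and Bnip3l at −0.35. The number series of the counts cannot be told apart from the condition, since all hypertrophic libraries and no other carry the higher series.

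**Figure D3:**
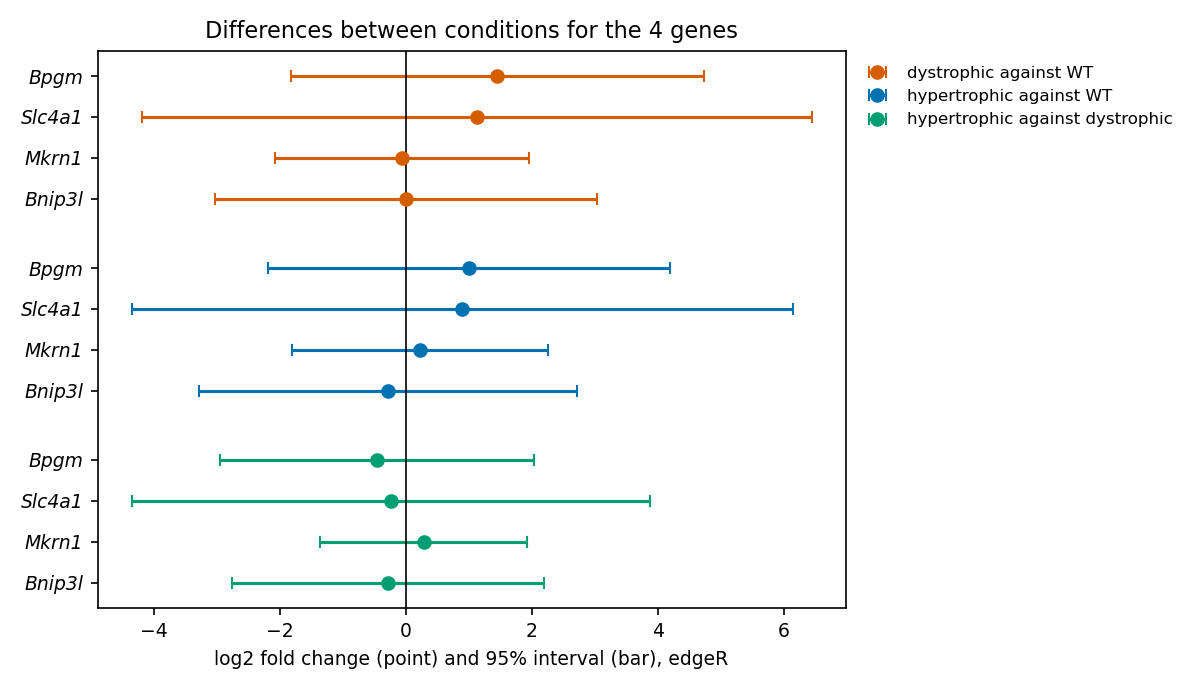
Log2 fold change (point) with its 95% interval (bar) for each gene in the 3 comparisons, from the edgeR fit to all 15 libraries. All 12 intervals include 0, and those of Slc4a1 are the widest.

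Hemoglobin served as a measure of how much erythroid RNA a library held, and the question was whether the 4 late erythroid genes followed it. None of the 4 correlations passed the test. Across the 15 libraries the Spearman correlation of the CPM with the hemoglobin share was 0.232 for Bpgm (permutation p = 0.404, adjusted p = 0.943 over 6883 genes). It was 0.150 for Bnip3l (permutation p = 0.596, adjusted p = 0.961), 0.0179 for Mkrn1 (permutation p = 0.954) and −0.00727 for Slc4a1 (permutation p = 0.984). Pearson's r of log2(CPM + 1) with the share was 0.183, −0.0020, −0.401 and 0.126 in the same order, with permutation p-values of 0.516, 0.993, 0.140 and 0.666. By Spearman's rho none of the 6883 genes passed the adjustment, and 5.48% had an unadjusted p under 0.05. The median rho over all these genes was −0.143, below the rho of each of the 4.

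The signs of these values turned on few libraries. Dystrophic replicates 4 and 2, with 15.3% and 12.3% hemoglobin, lay farthest from the median share. Without them rho was −0.126 for Bpgm, −0.147 for Slc4a1, 0.247 for Mkrn1 and 0.170 for Bnip3l, and r was −0.254, −0.237, 0.306 and −0.175. Dystrophic replicate 4 combined the highest hemoglobin share with the highest Bpgm and Bnip3l (1221 and 1077 CPM) and the lowest Mkrn1 (294 CPM), and without it alone the r of Mkrn1 went from −0.401 to 0.196.

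Within the 6 dystrophic libraries Bpgm ranked almost as hemoglobin did, with rho = 0.943 (exact permutation p = 0.0167, adjusted p = 0.582) and r = 0.890 (exact permutation p = 0.0125, adjusted p = 0.351). Slc4a1 had rho = 0.657 there, Bnip3l 0.429 and Mkrn1 −0.0286, with exact permutation p-values of 0.175, 0.419 and 1. Within the 6 hypertrophic libraries the values were −0.429 for Bpgm, −0.319 for Slc4a1 and −0.0857 for both Mkrn1 and Bnip3l, with exact permutation p-values of 0.419, 0.544, 0.919 and 0.919. The difference between these conditions was not tested, and the 3 WT libraries are too few for a correlation. Both conditions hold libraries with crossed numbers, and the correlations within them were not repeated with these libraries exchanged. Within the lower number series of the titles, 9 libraries of all 3 conditions, rho was 0.283 for Bpgm, 0.0870 for Slc4a1, 0.233 for Mkrn1 and −0.0833 for Bnip3l. Within the higher series, 3 dystrophic and 3 hypertrophic libraries, it was −0.0286, −0.714, −0.657 and 0.200. With both shallowest libraries (WT replicate 1 and hypertrophic replicate 5) left out, rho of Bpgm was 0.516 and that of the other 3 genes lay between −0.0110 and 0.105.

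**Figure D4:**
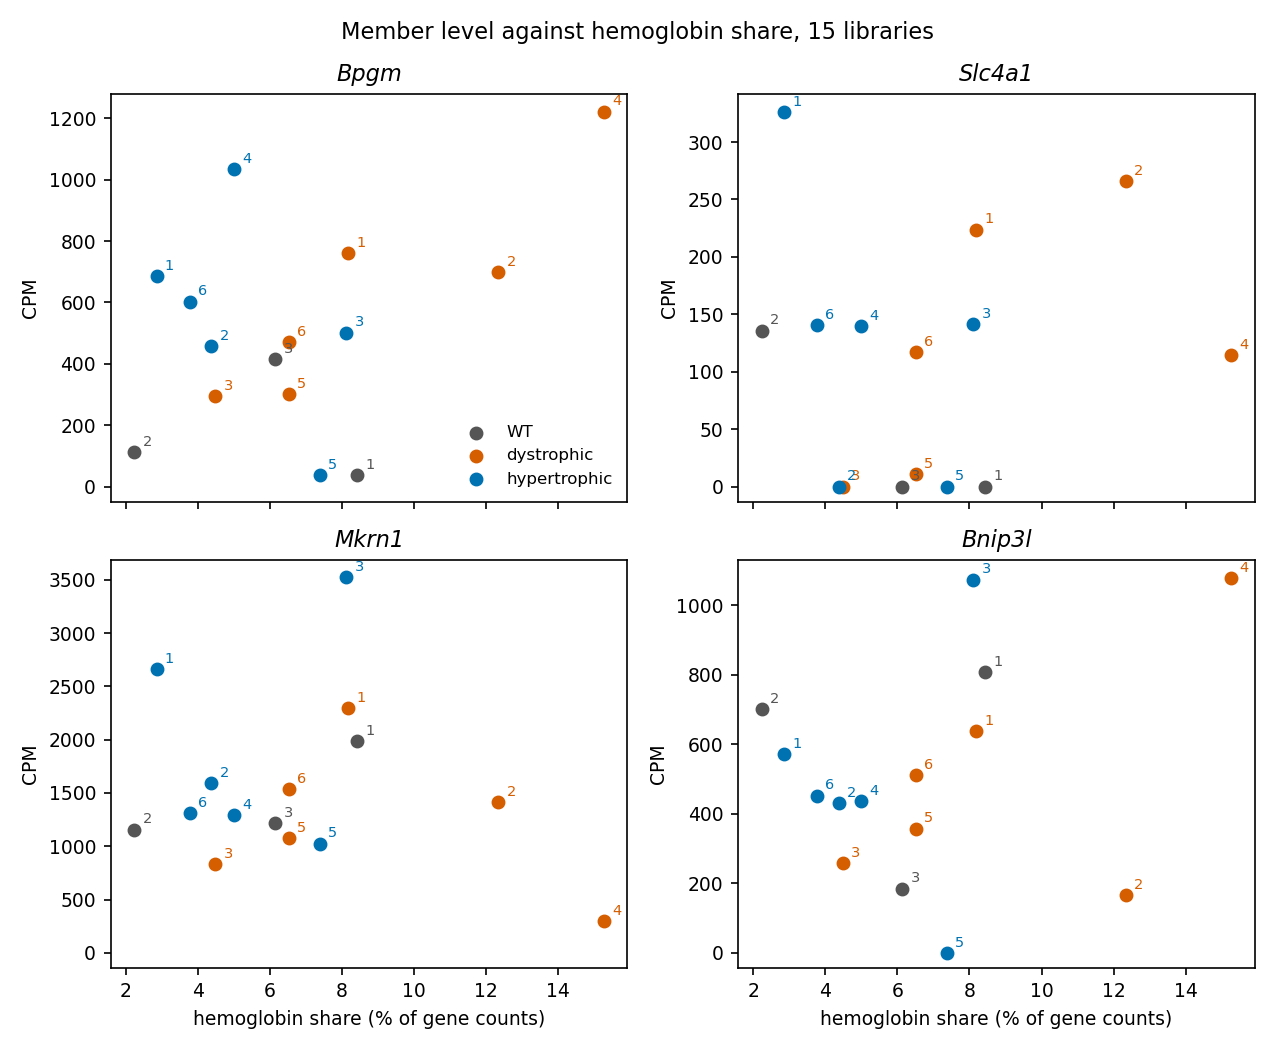
CPM of each gene (vertical axis) against the share of gene reads on 4 hemoglobin genes in percent (horizontal axis), a point per library coloured by condition with its replicate number. In the dystrophic libraries Bpgm is highest where hemoglobin is highest, while Mkrn1 is lowest in the library with the most hemoglobin, 15.3%.

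Set against hemoglobin itself, the dystrophic libraries had the narrowest range of Bpgm, a description without a test. They held between 0.461 and 0.931 reads of Bpgm per 100 hemoglobin reads. The hypertrophic libraries ran from 0.0495 to 2.41 and the WT libraries from 0.0436 to 0.677. These ranges follow the labels and were not taken with the crossed libraries exchanged. Of those libraries, hypertrophic replicates 1, 2 and 3 held 2.41, 1.05 and 0.619. The medians were 0.690, 1.32 and 0.50. Bnip3l had medians of 0.641, 1.09 and 0.959 and Mkrn1 of 1.75, 3.56 and 2.35 in dystrophic, hypertrophic and WT. Slc4a1 had at most 0.274 reads per 100 hemoglobin reads in the dystrophic libraries and reached 1.14 in hypertrophic replicate 1. Hbb-bs itself was lower in hypertrophic- than in dystrophic-derived EVs (log2 fold change −1.01, edgeR adjusted p = 0.00306), a single gene most of whose coding windows are shared with Hbb-bt. That call does not hold throughout: 0 genes were called in this comparison with no filter on low counts, with at least 10 counts in at least 8 libraries, with only the conditions compared, with the crossed libraries exchanged, with the 9 matching libraries, or without any single library among dystrophic replicates 1, 2, 4 and 5 and hypertrophic replicates 1 and 6.

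Among themselves none of the 4 genes passed the adjusted test of correlation with another. Of the 6 pairs, Bpgm and Slc4a1 had the highest correlation, with rho = 0.676 (permutation p = 0.00719) and r = 0.604 (permutation p = 0.0143). The adjusted p of this rho was 0.621 over all genes tested against Slc4a1 and 1 over those tested against Bpgm. Without hypertrophic replicate 5 and WT replicate 1, the libraries farthest from the median of Bpgm, rho was 0.558 and r 0.345. Within the dystrophic and the hypertrophic libraries rho was 0.600 and 0.580. Mkrn1 and Slc4a1 had rho = 0.513, Mkrn1 and Bnip3l 0.357, Slc4a1 and Bnip3l 0.302, Bpgm and Bnip3l 0.293 and Bpgm and Mkrn1 0.221, and the lowest permutation p of these was 0.0529. Without WT replicates 1 and 3, at 0 for Slc4a1, rho of Mkrn1 and Slc4a1 was 0.646, and without dystrophic replicate 4 and hypertrophic replicate 3, farthest from the median of Mkrn1, rho of Mkrn1 and Bnip3l was 0.588. Within the 6 hypertrophic libraries rho was 0.928 for Slc4a1 and Bnip3l, 0.829 for Mkrn1 and Bnip3l and 0.696 for Slc4a1 and Mkrn1, and r of Bpgm and Bnip3l was 0.951, with hypertrophic replicate 5 lowest or tied for lowest in all 4 genes. Within the 6 dystrophic libraries the same values were −0.0286, −0.0286, 0.657 and 0.553, and neither set was tested. All share the depth and the denominator of the same libraries.

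The levels of the 4 genes were also set against other properties of the libraries. The share of reads on the 37 mitochondrially encoded genes, from 5.88% to 22.9%, had rho = −0.673 with Slc4a1 (permutation p = 0.00736, adjusted p = 0.534) and −0.539 with Bpgm (permutation p = 0.0405, adjusted p = 0.675). It had −0.350 with Mkrn1 (permutation p = 0.199) and 0.204 with Bnip3l (permutation p = 0.466), beside a median of −0.174 over all genes, of which 7.25% had an unadjusted p under 0.05. This share was highest in the WT libraries (19.8% to 22.9%). Against the sum of 12 platelet genes rho was −0.307 for Bpgm, −0.0327 for Slc4a1, 0.325 for Mkrn1 and 0.457 for Bnip3l. The median over all genes was −0.214, and the lowest permutation p of the 4 was 0.0889, for Bnip3l. That sum had a median of 29521 CPM in WT, 13770 CPM in dystrophic and 29117 CPM in hypertrophic libraries. Against the number of genes detected rho lay between −0.0750 and 0.306 for the 4 genes, where the median gene had 0.511. The part of mitochondrial and platelet RNA in the levels of the 4 genes was not tested.

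The genes whose levels ranked most like each of the 4 were sought among 677 genes detected in at least 12 libraries, by Spearman's rho over the 15 libraries. For Bpgm they were Wdr26 (0.849), Prdx1 (0.824), Cox7a2 (0.738), Npc2 (0.720) and Wipf1 (0.717). For Slc4a1 they were Hnrnpa3 (0.861), Wdr26 (0.799), Tax1bp1 (0.759), Cst3 (0.741) and Sepp1 (0.721). Mkrn1 was followed by Mapk6 (0.783), H3f3a (0.779), Clu (0.764), Kif2a (0.751) and Ube2d2a (0.731), and Bnip3l by Creg1 (0.918), Bicd2 (0.876), 1700020I14Rik (0.806), Gatad1 (0.804) and Mmd (0.793). These values are descriptions, being the highest of many. None of the 4 hemoglobin genes, Alas2 or Fech was among them, and the highest place of any of these 6 genes was 100, held by Fech for both Bpgm and Bnip3l.

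The other genes of the same processes were read from the same fit by list. Of the heme synthesis genes, 12 of 12 were detected in at least 1 library and 8 were tested, and 0 were called in any comparison. Alas2 had a mean of 2632 CPM and, apart from hemoglobin itself, among the genes of these lists the highest correlation with the hemoglobin share, rho = 0.786 (permutation p = 0.00082, adjusted p = 0.846). Fech, which inserts iron into the heme ring, had rho = 0.415 (permutation p = 0.125), and Tmem14c and the iron importer Slc25a37 had −0.418 and −0.354. Alas2 was at 1992 ± 1765 CPM (SD, n = 3) in WT, 3358 ± 923 CPM (SD, n = 6) in dystrophic and 2225 ± 2393 CPM (SD, n = 6) in hypertrophic.

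Of the membrane and skeleton genes, the partners of band 3, 12 of the 15 symbols in the tables were detected, 6 were tested and 0 were called. The water channel Aqp1 had a mean of 126 CPM and Cd47 of 95.4 CPM, and each was detected in 11 libraries. Ankyrin, Ank1, the link between band 3 and the skeleton, was found in 4 libraries. Rhag, Kel and Icam4 were at 0 in all 15 libraries. Of the enzymes around Bpgm and of the antioxidant and carbonic anhydrase genes, 10 of 12 were detected, 9 were tested and 0 called, with Gpx1 at a mean of 1008 CPM, Cat at 378 CPM, Prdx2 at 358 CPM and Car2 at 198 CPM. The red cell pyruvate kinase Pklr was at 0 in every library.

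Of the mitophagy and autophagy genes beside Bnip3l, all 14 in the tables were detected and tested and 0 were called. Members of the Atg8 family, which NIX binds, were among the most abundant, with Gabarapl2 at a mean of 672 CPM, Gabarap at 615 CPM and Map1lc3b at 475 CPM, next to Becn1 at 612 CPM. Map1lc3b had rho = 0.591 with the hemoglobin share (permutation p = 0.0228, adjusted p = 0.846). Of the ubiquitin pathway genes beside Mkrn1, 11 of 12 were detected and 10 tested, 0 were called, and Ube2l6, Rnf10, Ubb and Ube2b had means of 446, 428, 270 and 153 CPM. Trim58, an erythroid E3 ligase, was at 0 throughout. Of the erythroid regulators 10 of 12 were detected and tested and 0 called. Nfe2, which platelet precursors use as well, led with 345 CPM, before Xpo7 (228 CPM), Lmo2 (104 CPM) and Bcl2l1 (96.9 CPM), whereas Klf1 and Epor, genes of earlier erythroid cells, were at 0 in all libraries.

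**Figure D5:**
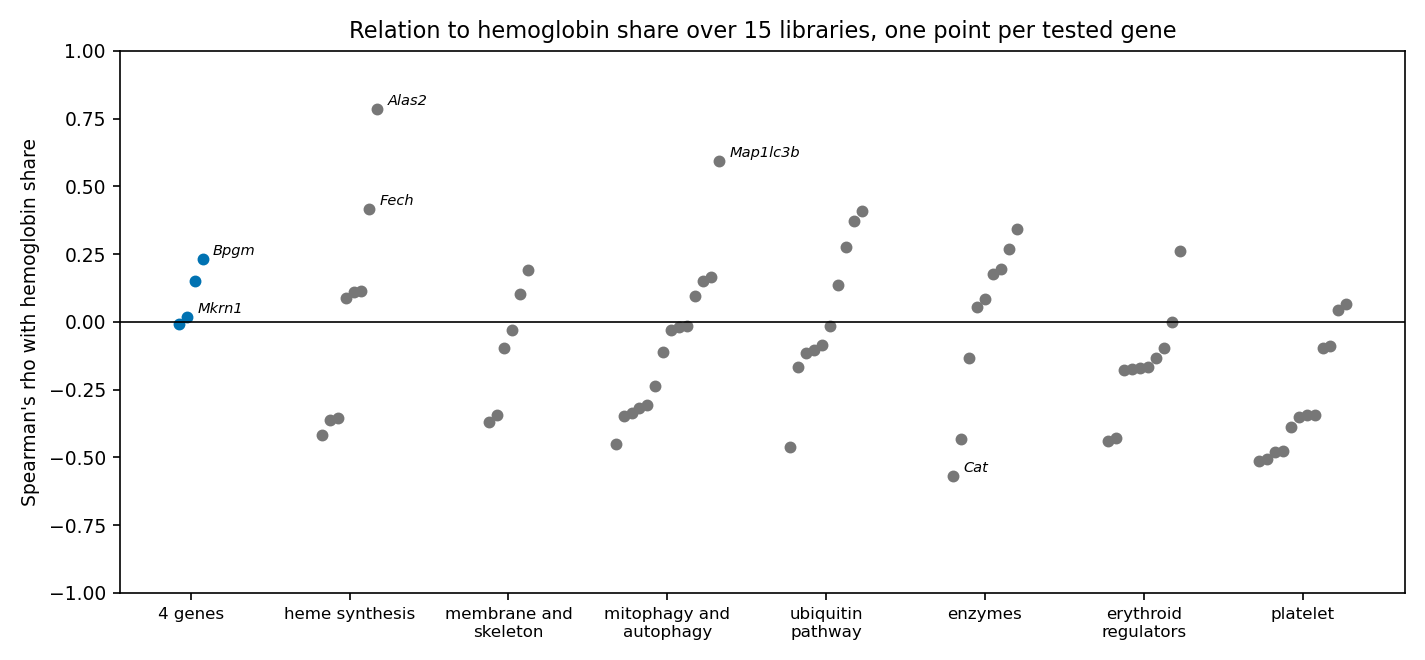
Spearman's rho with the hemoglobin share over 15 libraries (vertical axis), a point per tested gene, for the 4 genes (blue) and 7 other lists (grey). Alas2 is the highest at 0.786, the 4 genes lie between −0.00727 and 0.232, and most platelet genes lie below 0.

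Genes of other cell types that plasma EVs could carry were checked in the same way, a gene counting as detected with reads in at least 1 library. Platelet genes were detected 12 of 12, and Ppbp and Pf4 had means of 11443 and 6827 CPM. Of the B cell genes 5 of 5 were detected, with Cd74 at a mean of 593 CPM. T cell genes were detected 6 of 6, with Cd3d at a mean of 62.9 CPM but Cd4 in only 2 libraries. Neutrophil genes were detected 6 of 8, with S100a9 at 318 CPM. Of the monocyte and macrophage genes 4 of 5 were detected, with Lyz2 at 1185 CPM and Cd68 at 17.2 CPM. The liver genes were all detected, Alb at a mean of 143 CPM, with a list sum from 0 to 2181 CPM in the hypertrophic libraries and from 0 to 156 CPM in the dystrophic. Of the skeletal muscle genes 5 of 6 were detected. Acta1 had a mean of 42.6 CPM and Mylpf, found in 2 libraries, of 8.70 CPM. In all of these lists 0 genes were called in any comparison.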

How the data were processed

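EVs were isolated from plasma by ultracentrifugation, their RNA was preamplified, and single reads of 50 bases were aligned by the authors with TopHat to mm10, per the study's methods. The submitters' processing notes also name HTSeq and DESeq. The deposited tables hold the authors' unnormalized counts for each gene symbol, a table per library, and the 5 summary lines of each table (57.9% to 99.2% of its numbers) were left out. CPM was computed from the gene reads. All 15 libraries entered a single edgeR 4.0.16 fit (R 4.3.3, TMM, filterByExpr, 3 conditions, no covariate, adjusted p under 0.05), with DESeq2 1.42.0 as an alternative. Correlations used 100000 permutations, or all of them within 6 libraries, two-sided (scipy 1.17.1), and were adjusted over all genes that passed the filter. Gene positions came from GENCODE M21, which holds 39483 of the 43472 symbols. The procedures were also run on simulated data, whose outcome is not given here. The 4 genes, the gene lists and the tests were chosen with earlier results of these data known. From each list, the up to 4 genes with the highest mean CPM and any called gene were named, except for 1 gene of the membrane list that is not reported here, other genes at 0 having been singled out after their values were seen. The likeness search named the 5 highest.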

Additional observations from a re-analysis of the deposited data

Results flagged for a closer look

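Each condition of 6 libraries was searched for a library that stood apart from the other 5 by Dixon's criterion, in the CPM of each gene, in its reads per 100 hemoglobin reads and in the hemoglobin share. Of 18 sets of values 3 held such a library. Chance alone would give about 1 in 20 for independent sets. These sets are not independent, since the ratios of a library share its hemoglobin reads, and all 3 are such ratios. Bnip3l was at 0.134 reads per 100 hemoglobin reads in dystrophic replicate 2, below the other dystrophic libraries (0.548 to 0.784). Slc4a1 was at 1.14 reads per 100 hemoglobin reads in hypertrophic replicate 1, where the next highest hypertrophic library was at 0.373. Mkrn1 was at 9.35 reads per 100 hemoglobin reads in the same library, where the next highest was at 4.35. Hypertrophic replicate 1 had the lowest hemoglobin share of its condition, 2.85%, and is among the 6 libraries with crossed numbers.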

How the results depend on the processing

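In all alternatives run, edgeR or DESeq2, 0 of the 4 genes were called in any comparison, and no correlation with the hemoglobin share passed the adjustment (lowest adjusted p 0.351, the Pearson r of Bpgm within the dystrophic libraries). The count of all genes called depended most on the tool: DESeq2 with its own size factors, which changes the model, the normalization and the genes given an adjusted p together, called 933, 1031 and 243 genes of all, against 1, 2 and 1 by edgeR, for dystrophic against WT, hypertrophic against WT and hypertrophic against dystrophic. No paired analysis was possible because the labels give no replicate numbers and the numbers used here follow the accession order. Depth limits WT replicate 1, where a gene below 110 CPM can be missed. Leaving out the shallowest libraries together was an alternative chosen after the data were seen. Where a sign changed, the cause was not tested.

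Of 132 log2 fold changes under alternatives other than leaving out a library, 113 kept their sign and 19 did not. For Mkrn1 between dystrophic and WT (−0.06) they were 0.24 with no filter, 0.38 with the title series as a covariate and 0.45 with the crossed libraries exchanged. For Bnip3l in the same comparison (0.00) they were −0.072 with DESeq2, −0.17 without TMM, −0.16 with at least 10 counts in at least 8 libraries, −0.010 with only the conditions compared, −0.12 with the crossed libraries exchanged, −0.68 with the 9 matching libraries and −0.031 without both shallowest libraries. Mkrn1 between hypertrophic and WT (0.23) was at −0.38 with the crossed libraries exchanged and −0.69 with the 9 matching libraries. Between hypertrophic and dystrophic, exchanging the crossed libraries gave 0.093 for Bpgm and −0.83 for Mkrn1, and the 9 matching libraries gave −0.69 for Mkrn1. DESeq2 gave 0.0068 for Slc4a1 and 0.022 for Bnip3l, and Slc4a1 was at 0.032 without TMM and 0.027 without both shallowest libraries.

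Leaving out each library in turn kept the sign of 160 of 180 log2 fold changes. Against WT the dystrophic values ran from 0.93 to 2.95 for Bpgm, 0.55 to 11.97 for Slc4a1, −0.23 to 0.26 for Mkrn1 and −0.34 to 0.56 for Bnip3l, and the hypertrophic values from 0.48 to 2.49, 0.13 to 11.79, −0.029 to 0.48 and −0.63 to 0.24. The highest values of Slc4a1 are those without WT replicate 2, which leave that gene at 0 in WT. Hypertrophic against dystrophic ran from −0.64 to −0.19 for Bpgm, −0.86 to 0.15 for Slc4a1, 0.03 to 0.53 for Mkrn1 and −0.62 to −0.0020 for Bnip3l.

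The Spearman correlation with the hemoglobin share kept its sign in 24 of 38 other alternatives and in 42 of 60 that leave out a library. For Bpgm it was −0.126 without the libraries farthest from the median share, −0.429 within the hypertrophic libraries and −0.0286 within the higher title series. For Slc4a1 it was 0.0255 over reads without hemoglobin, 0.657 within the dystrophic libraries, 0.0870 within the lower title series and 0.105 without both shallowest libraries. For Mkrn1 it was −0.0179 against Hbb-bs alone, −0.0286 within the dystrophic, −0.0857 within the hypertrophic libraries, −0.657 within the higher title series and −0.0110 without both shallowest libraries. For Bnip3l it was −0.0857 within the hypertrophic libraries and −0.0833 within the lower title series. Leaving out a library gave correlations from 0.0549 to 0.393 for Bpgm, −0.155 to 0.200 for Slc4a1, −0.0989 to 0.253 for Mkrn1 and −0.0462 to 0.336 for Bnip3l.

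Pearson's r kept its sign in 33 of 46 and 51 of 60. Without the farthest libraries r was −0.254 for Bpgm, −0.237 for Slc4a1 and 0.306 for Mkrn1, and within the hypertrophic libraries −0.540, −0.294 and 0.0906. Within the lower title series r of Mkrn1 was 0.220. For Bnip3l r was 0.0226 with a pseudocount of 10, 0.0197 over reads without hemoglobin, 0.335 within the dystrophic libraries, 0.137 within the higher title series, 0.10 without both shallowest libraries and 0.131 over libraries with a count. Leaving out a library gave r from −0.0458 to 0.319 for Bpgm, 0.0111 to 0.235 for Slc4a1, −0.511 to 0.196 for Mkrn1 and −0.191 to 0.131 for Bnip3l. The number of libraries with each gene stayed the same or within 1 under higher minimum counts and sampling down.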
